A study of Mus musculus with 8 samples.

Results

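The mRNAs of the mitochondrial ribosomal proteins were followed through LPS/IFNγ stimulation and efferocytosis in murine macrophages (Mϕ). The members were the protein-coding genes of the GENCODE vM39 mouse annotation whose symbols begin with Mrpl or Mrps and a number. This rule gave 78 of the 55359 genes listed in the expression table, 49 named Mrpl and 29 named Mrps, and all 78 were in the table. Their expression was not used to choose them. Mrps36 had a mean under 10 normalized counts and was left out of the tests, so that 77 members were tested. A normalized count is the number of reads on a gene divided by the authors' size factor for the sample.

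Total RNA sequencing had been performed on bone marrow-derived Mϕ of adult wildtype C57BL/6 mice of both sexes, differentiated with M-CSF and GM-CSF, in 4 groups of 2 samples. Naïve Mϕ were left unstimulated (Ctrl) or received LPS at 100 ng/mL together with IFNγ at 100 U/mL for 6 h (LPS). Efferocytic Mϕ were first co-cultured for 16 h with 5 apoptotic cells per Mϕ and washed, and then went without stimulation (Eff) or received the same LPS/IFNγ treatment (LPSEff). The apoptotic cells were NIH-3T3 CA fibroblasts, a mouse line carrying a caspase-8 domain that a dimerizer activates, and the dimerizer was present in the co-culture. CD45+ cells were isolated by magnetic sorting before RNA extraction. The sources do not say whether the samples of a group came from separate mice, so the p-values measure the spread between these samples only.

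Mitochondria keep their own ribosome, which translates the few mRNAs made from mitochondrial DNA, all of them for subunits of the oxidative phosphorylation complexes. Its RNAs come from mitochondrial DNA, whereas its proteins are encoded in the nucleus, made in the cytosol and imported. Part of these proteins have counterparts in the bacterial ribosome and the others are particular to mitochondria. The small subunit reads the mRNA and the large subunit joins the amino acids, and the new chains are inserted into the inner membrane.

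The samples held between 3481288 and 12020918 reads assigned to genes, with the fewest in Ctrl replicate 1. The median member was covered by 90.5 reads in the sample where it was lowest and by 327 reads where it was highest, so single members were measured with appreciable counting error. The defining Mϕ markers were present in all samples, with 10 markers summing to between 108856 and 164148 normalized counts. Lymphocyte markers were near 0, with 4 markers summing to between 2.54 and 15.5 normalized counts. Totals of normalized counts were between 6587737 and 6951788 in unstimulated and between 8470249 and 9489294 in stimulated samples. In bulk RNA, fewer cells of a type and less RNA per cell cannot be told apart.

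The mRNAs of this single particle differed widely in level. On the scale of normalized counts per kilobase of the canonical transcript, the median member of Ctrl Mϕ stood at 86.3, with a range from 10.0 to 764. The highest level belonged to Mrpl33, with 572 and 955 normalized counts per kilobase in the Ctrl samples. It was followed by Mrpl20 with 596 and 628, Mrpl28 with 312 and 389, Mrps24 with 330 and 299 and Mrps34 with 289 and 313. The Ctrl samples of Mrpl33 spanned those of Mrpl20, both lay above those of the next members, and the levels of Mrpl28, Mrps24 and Mrps34 overlapped. The order depended on the length used, and with the length of all annotated exons 3 of these 5 members were again among the 5 highest.

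At the lower end, Mrps36 had a mean level in Ctrl Mϕ of 10.0 normalized counts per kilobase, Mrpl55 17.6, Mrpl23 20.5, Mrpl35 22.4 and Mrps17 23.6. Mrps36 is known today as a subunit of the 2-oxoglutarate dehydrogenase complex rather than of the ribosome. Its normalized counts lay between 2.54 and 11.4 over the 8 samples. A count of 3 reads was worth between 1.73 and 5.71 normalized counts depending on the sample, so these values lie near the counting limit. The median level per kilobase in Ctrl was 73.6 for the 26 small subunit members and 97.8 for the 51 large subunit members. Mrps30 and Mrps18a are counted with the large subunit, where structures of the particle place them.

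The promoters of the members are described because a part of the members was lower after LPS/IFNγ. RefSeq promoter windows, from 250 bases before to 50 bases after the start site, were at hand for 69 of the 78 members, and all 69 were found unchanged in GRCm39. For reference, 120 bases are shown for the members with the most stable falls (Mrpl12, Mrps26) and for fallen members with a motif core in these bases (Mrpl34, Mrpl36). They are also shown for a member with 2 different cores (Mrpl22) and for a member without a fall (Mrpl52). Each stretch ends before the more upstream of the RefSeq and GENCODE starts and is written 5′ to 3′ along the gene's strand, and capitals mark motif cores on either strand:

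Mrpl12 (GRCm39 chr11:120375319-120375438, plus strand): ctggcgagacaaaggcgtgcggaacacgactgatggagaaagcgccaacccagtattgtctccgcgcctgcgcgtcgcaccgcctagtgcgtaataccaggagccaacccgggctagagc
Mrps26 (GRCm39 chr2:130405538-130405657, plus strand): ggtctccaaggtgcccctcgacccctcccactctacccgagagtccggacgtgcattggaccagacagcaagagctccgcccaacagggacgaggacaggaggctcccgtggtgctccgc
Mrpl34 (GRCm39 chr8:71917435-71917554, plus strand): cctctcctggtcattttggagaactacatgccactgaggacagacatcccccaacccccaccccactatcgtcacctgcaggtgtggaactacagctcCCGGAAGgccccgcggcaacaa
Mrpl36 (GRCm39 chr13:73478982-73479101, plus strand): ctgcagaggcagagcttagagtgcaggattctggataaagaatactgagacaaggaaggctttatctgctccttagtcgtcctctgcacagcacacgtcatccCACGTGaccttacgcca
Mrpl22 (GRCm39 chr11:58062355-58062474, plus strand): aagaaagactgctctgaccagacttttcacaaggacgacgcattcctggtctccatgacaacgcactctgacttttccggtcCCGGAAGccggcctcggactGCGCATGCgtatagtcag
Mrpl52 (GRCm39 chr14:54664240-54664359, plus strand): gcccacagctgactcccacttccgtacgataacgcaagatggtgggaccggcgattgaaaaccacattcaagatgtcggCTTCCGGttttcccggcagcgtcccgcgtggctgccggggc

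The searched cores were CCGGAAG, bound by ETS family factors such as GABP, AAGATGGC of YY1, GCATGCGC of NRF1 and the E-box CACGTG, read on both strands, and no core is contained in another. The capitals show an ETS core beginning 37 bases before the RefSeq start in Mrpl34 and 47 bases before it in Mrpl52, and an E-box beginning 43 bases before it in Mrpl36. In Mrpl22 an ETS core began 53 bases and an NRF1 core 33 bases before the start. The stretches of Mrpl12 and Mrps26 held none of these cores, and a core absent from these letters says nothing of the factor. In the full windows, Mrps26 held 1 ETS core, Mrpl36 also 1 YY1 core and Mrpl52 2 ETS cores, while Mrpl12 held none.

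ETS cores were present in 25 of the 69 member windows (36.2%), compared with 18.3% of the 9693 windows of tested protein-coding genes and 9.12% of all 27025 windows. The YY1 core was present in 12 member windows (17.4%), compared with 4.85% of tested genes, and in 8 of the 12 a copy lay past the start site. NRF1 cores were found in 8 member windows (11.6%), compared with 5.45% of tested genes, and E-boxes in 5 (7.25%), compared with 10.2%. At least 1 of the cores was held by 39 member windows (56.5%) and by 33.4% of tested genes. These matches are a description of letters and were not tested.

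A part of the members faced a neighbouring gene. The start of 20 of the 78 members (25.6%) faced the start of another protein-coding gene on the opposite strand, with canonical starts at most 1000 bases apart or overlapping by at most 200 bases. Among the 12498 tested protein-coding genes, 9.33% had such a neighbour. In Mrpl46 and Mrps11, which face each other 30 bases apart, both genes were members. Other partners included Twnk, the mitochondrial DNA helicase, 56 bases from Mrpl43, and Sars2, the mitochondrial seryl-tRNA synthetase, 129 bases from Mrps12.

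After LPS/IFNγ stimulation of naïve Mϕ a part of the mitoribosomal mRNAs was lower. Differences are given as log2 fold changes on the log2(normalized count + 1) scale, and calls rest on p-values adjusted by Benjamini-Hochberg over all tested genes, with a threshold of 0.05. In the comparison of LPS with Ctrl, 19 of 77 members (24.7%) were called lower and 0 were called higher by limma, where 11.6% of all tested genes were called lower and 12.4% higher. At an unadjusted p under 0.05, 31 members were lower and 1 (Mrpl54) was higher in the same test. Of all 16309 tested genes, 2941 were lower and 2854 higher at that threshold. The median log2 fold change of the members was −0.43, beside −0.01 for all 16309 tested genes. In total 64 of the 77 members lay below 0, and 13 had a log2 fold change of −1 or less, as had 11.8% of all tested genes. In 49 members (63.6%) both LPS samples lay below both Ctrl samples, compared with 30.9% of all tested genes, and in 7 (9.1%) both lay above, compared with 28.4%.

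The called members are spread over the particle. They comprised 13 of 51 large and 6 of 26 small subunit members, with median log2 fold changes of −0.43 and −0.44. Proteins with a bacterial counterpart held 12 of the calls among 46 members, and those particular to mitochondria held 7 among 31. The heat map shows the falls as 2 blue LPS columns in its upper part.

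**Figure D1:**
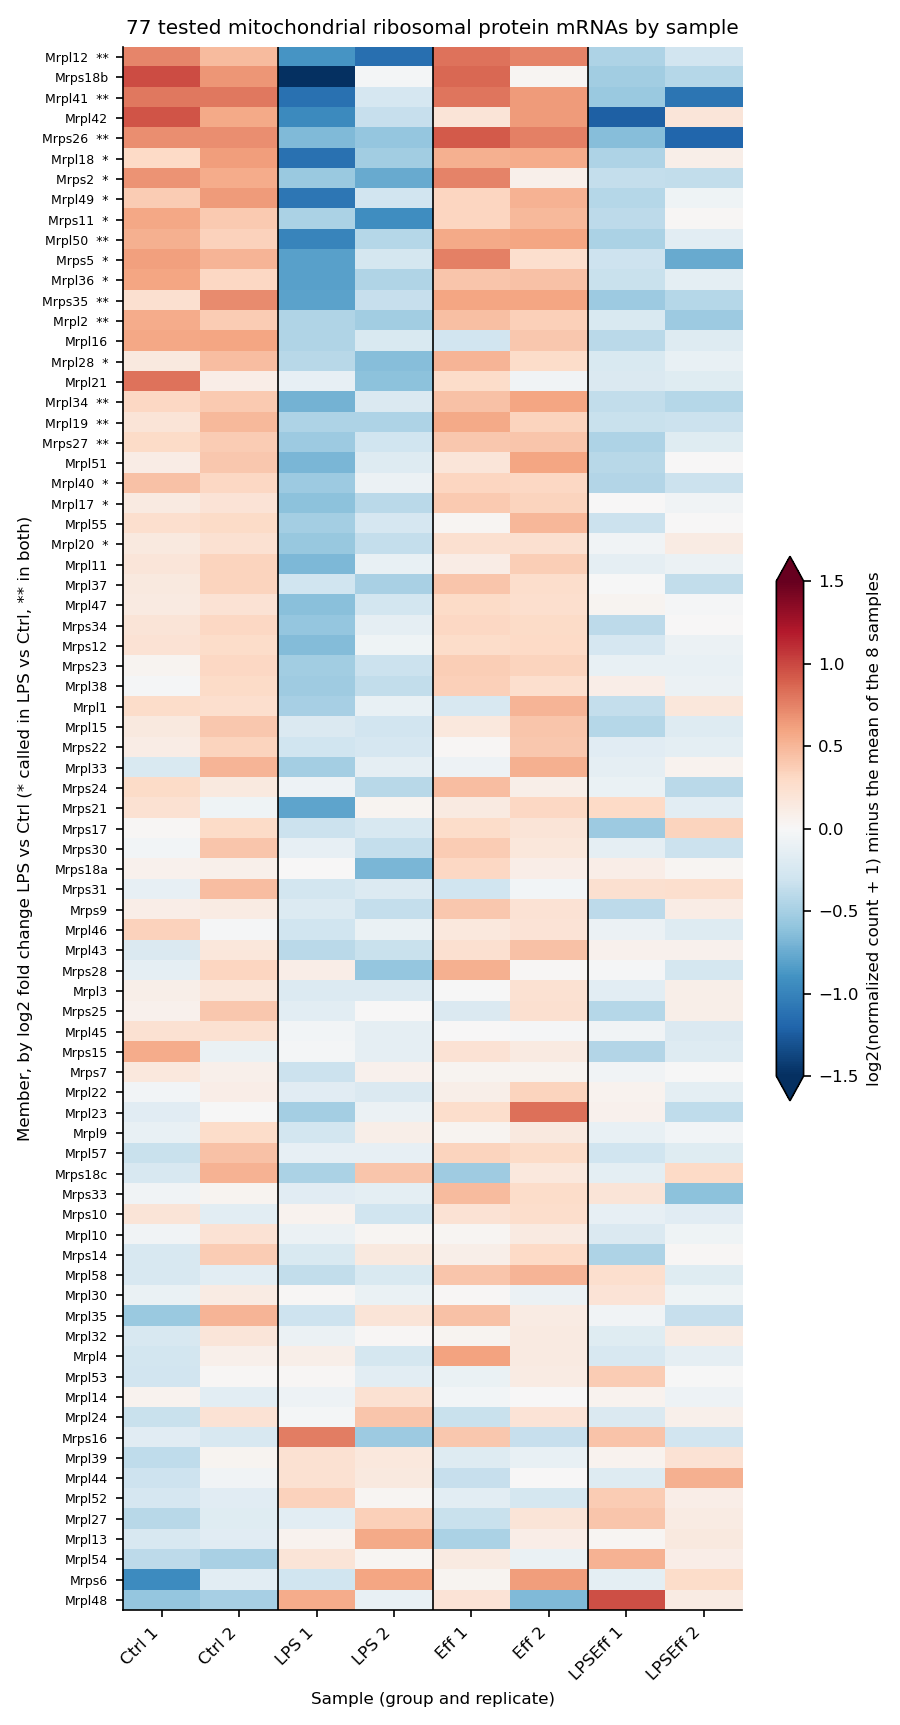
Log2(normalized count + 1) of the 77 tested members, 1 row each, in the 8 samples, given as the difference from the member's mean over all samples (blue lower, red higher). Rows are ordered by the log2 fold change of LPS vs Ctrl, from −1.61 for Mrpl12 at the top to 0.76 for Mrpl48 at the bottom; * marks members called in LPS vs Ctrl and ** those also called in LPSEff vs Eff. The upper rows are lower in both LPS and both LPSEff samples than in the Ctrl and Eff samples.

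The largest fall was that of Mrpl12, the protein of the flexible stalk that contacts translation factors. Ctrl Mϕ had 508 and 426 normalized counts and LPS Mϕ 166 and 139, while Eff Mϕ had 538 and 513 and LPSEff Mϕ 222 and 251. Its gene lies at GRCm39 chr11:120375430-120381396 on the plus strand. All stimulated samples lay below all unstimulated samples. The log2 fold change was −1.61 (SE 0.20, limma adjusted p = 0.000959), a 3.05-fold fall, and the 95% interval ran from −2.06 to −1.16. The other stalk members were not called. Mrpl11, which holds the stalk on the large subunit, had a log2 fold change of −0.65 (limma adjusted p = 0.094), and Mrpl10, which anchors the copies of Mrpl12, had −0.11 (limma adjusted p = 0.73), which became 0.020 without Ctrl replicate 2.

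Mrpl41, a large subunit protein without bacterial counterpart, was at 139 and 139 normalized counts in Ctrl and at 36.2 and 67.0 in LPS. Its log2 fold change was −1.48 (SE 0.34, limma adjusted p = 0.016). Mrps26, a small subunit protein particular to mitochondria, was at 238 and 237 in Ctrl and at 91.8 and 97.5 in LPS. The samples of each group lay close together, and the log2 fold change was −1.32 (SE 0.24, limma adjusted p = 0.0059).

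Mrpl18, the counterpart of the bacterial protein next to the 5S RNA, was at 171 and 216 normalized counts in Ctrl and at 63.4 and 96.5 in LPS, and its log2 fold change was −1.29 (limma adjusted p = 0.015). Mrps2, a conserved protein of the small subunit, was at 147 and 136 in Ctrl and at 62.1 and 53.8 in LPS, with a log2 fold change of −1.27 (limma adjusted p = 0.013). Mrpl49, particular to mitochondria, was at 194 and 233 in Ctrl and at 69.8 and 122 in LPS, with a log2 fold change of −1.19 (limma adjusted p = 0.023). In each of the 3 the groups did not overlap.

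Mrps11, of the small subunit platform, fell from 152 and 134 normalized counts in Ctrl to 72.4 and 52.8 in LPS, a log2 fold change of −1.19 (limma adjusted p = 0.014). Its neighbour Mrpl46 across the shared start region was at 189 and 147 in Ctrl and at 120 and 139 in LPS. The log2 fold change of Mrpl46 was −0.36 and was not called (limma adjusted p = 0.28). Mrpl50, Mrps5 and Mrpl36 fell with log2 fold changes of −1.15, −1.09 and −1.08 and limma adjusted p-values of 0.015, 0.037 and 0.010. Mrps5 is a conserved small subunit protein at the mRNA entry, and Mrpl36 is a small conserved protein of the large subunit whose promoter is printed above.

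The other called members fell by less than Mrpl36. They were Mrps35, Mrpl2, Mrpl28, Mrpl34, Mrpl19, Mrps27, Mrpl40, Mrpl17 and Mrpl20, with log2 fold changes between −1.04 (Mrps35) and −0.65 (Mrpl20). Mrpl2 belongs to the core of the peptidyl transferase region and Mrps27 is a pentatricopeptide repeat protein of the small subunit. Mrpl40 was close to the threshold (limma adjusted p = 0.0499). Of the members with the highest level per kilobase, Mrpl20 and Mrpl28 were called and Mrpl33, Mrps24 and Mrps34 were not.

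Large differences without a call were seen in members with few reads or scattered samples. Mrps18b was at 41.9 and 33.5 normalized counts in Ctrl and at 6.47 and 20.3 in LPS, where the lower LPS value rests on 5 reads. Its log2 fold change was −1.61 (SE 0.56, limma adjusted p = 0.074). Mrpl42 was at 128 and 98.3 in Ctrl and at 33.6 and 51.8 in LPS, with a log2 fold change of −1.40 (SE 0.47, limma adjusted p = 0.064). The paralogs of Mrps18b, all related to the single bacterial S18, had log2 fold changes nearer to 0. Mrps18a had a log2 fold change of −0.41 (limma adjusted p = 0.29) and Mrps18c one of −0.17 (limma adjusted p = 0.81), which became 0.22 without Ctrl replicate 2.

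A minority of members lay higher after stimulation. Mrpl48, near the central protuberance of the large subunit, was at 238 and 252 normalized counts in Ctrl and at 522 and 329 in LPS, and its log2 fold change was 0.76 (SE 0.38, limma adjusted p = 0.20). Mrps6, a conserved small subunit protein, was at 74.3 and 128 in Ctrl and at 116 and 217 in LPS, so that the groups overlapped (log2 fold change 0.70, limma adjusted p = 0.25). Mrpl54 was at 215 and 202 in Ctrl and at 323 and 288 in LPS, a log2 fold change of 0.55 (limma adjusted p = 0.10). Mrpl13, Mrpl27 and Mrpl52 had log2 fold changes of 0.52, 0.40 and 0.40, and in each of these 3 both LPS samples lay above both Ctrl samples. None of these members was called in the fit of group means, and calls with a replicate block are given at the end. With samples scaled to equal totals Mrpl52 had −0.0044. Mrpl48 and Mrpl27 have pseudogenes that bear their names, and Mrps6 shares exon sequence on the same strand with Slc5a3, so their counts are less certain. Of the 4504 exon bases of Mrpl54, 4250 overlap Matk on the other strand. Whether the counting matched the strand of the library is not given in the sources used here.

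Mrps30 and Mrpl58 were not called. Mrps30, also described in connection with cell death, had a log2 fold change of −0.43 in LPS vs Ctrl (limma adjusted p = 0.24). Mrpl58, a peptidyl-tRNA hydrolase that rescues stalled mitoribosomes, had −0.11 (limma adjusted p = 0.80).

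The calls depended on single samples. Without Ctrl replicate 2, 3 members (3.9%) were called lower in LPS vs Ctrl (Mrpl12, Mrps26 and Mrpl36), where 4.78% of all tested genes were called lower. Without Ctrl replicate 1, 5 members (6.49%) were called (Mrpl12, Mrps26, Mrpl18, Mrpl28 and Mrps35), beside 5.58% of all tested genes. Without LPS replicate 1, 6 members (7.79%) were called (Mrpl12, Mrps26, Mrpl2, Mrpl28, Mrps2 and Mrps11), beside 6.81%. In these omissions the members' share was near or below that of all genes. The other omissions left 15 to 18 calls (19.5% to 23.4%), beside 9.2% to 10.6% of all tested genes. Mrpl12 and Mrps26 were called in both LPS/IFNγ comparisons whichever of the 8 samples was left out. When every sample was instead scaled to an equal total, 48 members were called lower in each LPS/IFNγ comparison, and their median log2 fold changes were −0.83 (LPS vs Ctrl) and −0.84 (LPSEff vs Eff). The same scaling moved the medians of all tested genes to −0.41 and −0.44, and called 26.4% of them lower and 8.60% higher in LPS vs Ctrl, and 26.7% lower and 7.40% higher in LPSEff vs Eff.

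Markers of other myeloid cells moved with the stimulation as well. Of the dendritic cell markers, 4 of 4 tested lay higher in LPS than in Ctrl and 2 (Ccr7 and Xcr1) were called by limma, and the summed level of all 5 ran from 2036 to 2568 normalized counts in Ctrl and from 8291 to 16024 in LPS. Ccr7, which activated Mϕ can also express, made up most of that sum. Of the neutrophil markers, 3 of 3 tested lay higher and 1 (S100a8) was called, and the sum ran from 608 to 851 in Ctrl and from 1333 to 1567 in LPS. The defining neutrophil genes Ly6g and Elane stayed at 19.4 normalized counts or fewer. The part of the cells that carry these markers in the members' values was not tested.

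In efferocytic Mϕ the same stimulation gave the same sign for most members. In the comparison of LPSEff with Eff, 9 of 77 members (11.7%) were called lower and 0 higher by limma, where 8.95% of all tested genes were called lower and 10.7% higher. At an unadjusted p under 0.05, 19 members were lower and 1 (Mrpl52) was higher. Of all 16309 tested genes, 2624 were lower and 2691 higher at that threshold. All 9 called members were among the 19 called in naïve Mϕ. The median log2 fold change of the members was −0.39, beside 0.01 for all tested genes, and 5 members had a log2 fold change of −1 or less, a share of 6.49% beside 9.74% of all tested genes. In 53 members (68.8%) both LPSEff samples lay below both Eff samples, compared with 30.4% of tested genes, and in 3 (3.9%) above, compared with 29.5%.

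Mrps26 had the largest fall in efferocytic Mϕ. It was at 278 and 248 normalized counts in Eff and at 93.4 and 63.5 in LPSEff, and its log2 fold change was −1.75 (SE 0.24, limma adjusted p = 0.00184). Mrpl41 was at 139 and 124 in Eff and at 53.8 and 36.8 in LPSEff (log2 fold change −1.54, SE 0.34, limma adjusted p = 0.015). Mrpl12 was again among the largest falls, with a log2 fold change of −1.15 (SE 0.20, limma adjusted p = 0.00514). The panels of the 9 called members show no overlap between stimulated and unstimulated samples.

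The other 6 of the 9 fell by less. Mrps35, particular to the mitochondrial small subunit, was at 185 and 186 normalized counts in Eff and at 83.9 and 91.4 in LPSEff, and in naïve Mϕ at 145 and 201 without and at 69.8 and 96.5 with stimulation. Mrpl50, particular to the mitochondrial large subunit, was at 177 and 180 in Eff and at 85.5 and 107 in LPSEff. The log2 fold changes in efferocytic Mϕ were −1.07 for Mrps35 and −0.90 for Mrpl50 (limma adjusted p = 0.022 and 0.046). Mrpl34, a conserved small protein of the large subunit, was at 159 and 176 in Eff and at 90.3 and 86.3 in LPSEff (log2 fold change −0.91, limma adjusted p = 0.031). Mrpl2 was at 206 and 194 in Eff and at 128 and 103 in LPSEff (log2 fold change −0.79, limma adjusted p = 0.033). Mrpl19, a conserved protein at the interface of the subunits, was at 268 and 228 in Eff and at 143 and 143 in LPSEff (log2 fold change −0.79, limma adjusted p = 0.031). Mrps27 was at 196 and 197 in Eff and at 107 and 131 in LPSEff, with a log2 fold change of −0.73 close to the threshold (limma adjusted p = 0.047).

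**Figure D2:**
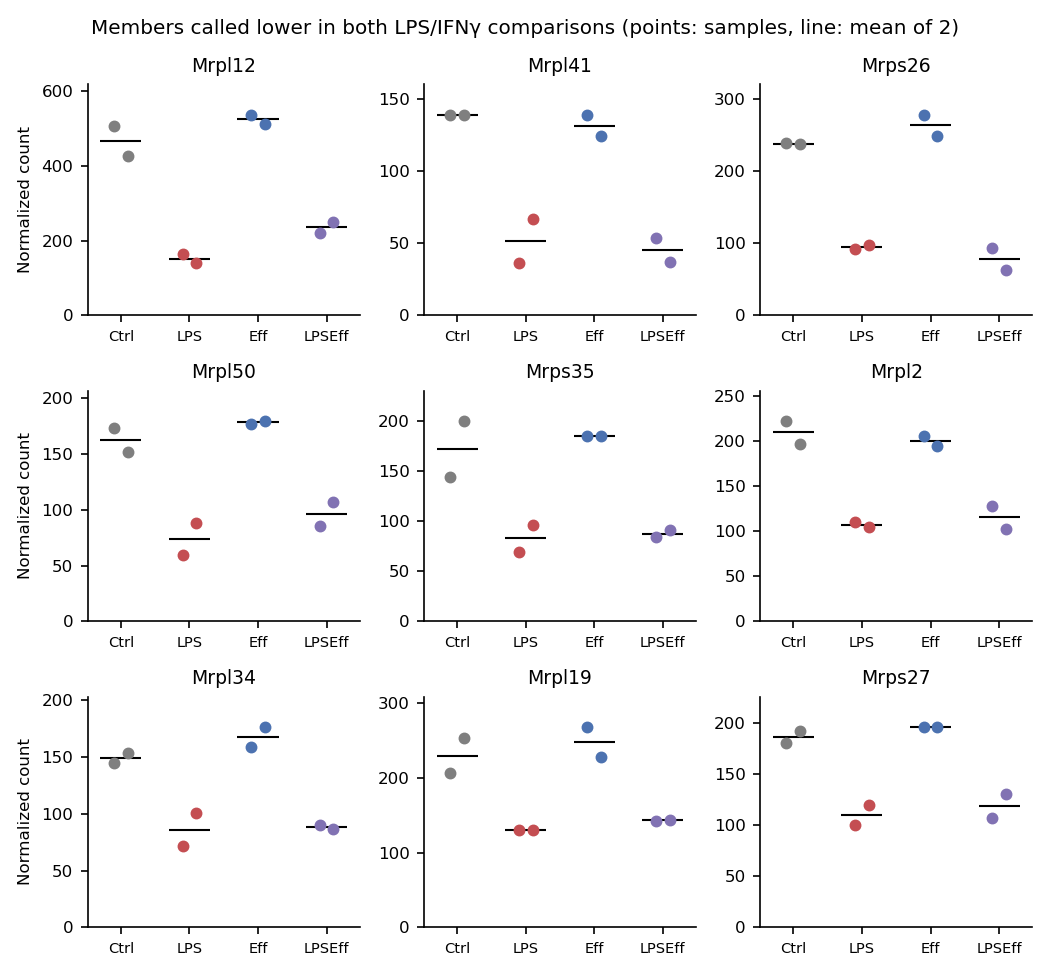
Normalized counts of the 9 members called lower in both LPS/IFNγ comparisons, 1 panel each with an axis from 0. Points are the 2 samples of each group and the line is their mean; in each panel both LPS and both LPSEff samples lie below the Ctrl and Eff samples.

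Further large differences in efferocytic Mϕ did not pass the test. Mrps5 had a log2 fold change of −1.03 (limma adjusted p = 0.053), Mrpl42 −0.93 (limma adjusted p = 0.21), Mrps18b −0.91 (limma adjusted p = 0.31) and Mrps2 −0.78 (limma adjusted p = 0.091). On the higher side stood Mrpl48, at 412 and 225 normalized counts in Eff and at 694 and 388 in LPSEff. Its log2 fold change of 0.77 was close to that in naïve Mϕ, but the groups overlapped and it was not called (limma adjusted p = 0.21). Mrpl52, Mrps31, Mrpl27, Mrpl44 and Mrpl54 had log2 fold changes between 0.29 and 0.45 and were not called, and with equal totals those of Mrps31, Mrpl27, Mrpl44 and Mrpl54 were below 0.

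Without Eff replicate 1 or Eff replicate 2, 2 members (Mrpl12 and Mrps26), or 2.6%, were called lower in LPSEff vs Eff, beside 3.32% and 3.87% of all tested genes. Without LPSEff replicate 1, Mrpl12, Mrps26 and Mrpl41 were called (3.9%, beside 3.58% of all tested genes), and without LPSEff replicate 2, Mrpl12, Mrps26 and Mrpl42 (3.9%, beside 5.46%). Leaving out Ctrl replicate 1 or 2, which enter through the shared estimate of the spread, left 5 calls (6.49%), beside 7.2% and 7.16% of all tested genes. Leaving out LPS replicate 1 or 2 gave 11 calls (14.3%), beside 9.71% and 9.55%.

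Across the 77 members the changes in naïve and efferocytic Mϕ, which share no samples, were similarly ordered, with Pearson's r of 0.81 and Spearman's rho of 0.77. These values describe genes within 1 data set, whose samples share normalization, and genes are not independent replicates. In total 61 members lay below 0 in both comparisons, 10 above 0 in both, and 6 on opposite sides. In 42 members the stimulated samples lay below the unstimulated ones in both contexts, as they did in 23.3% of all tested genes.

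**Figure D3:**
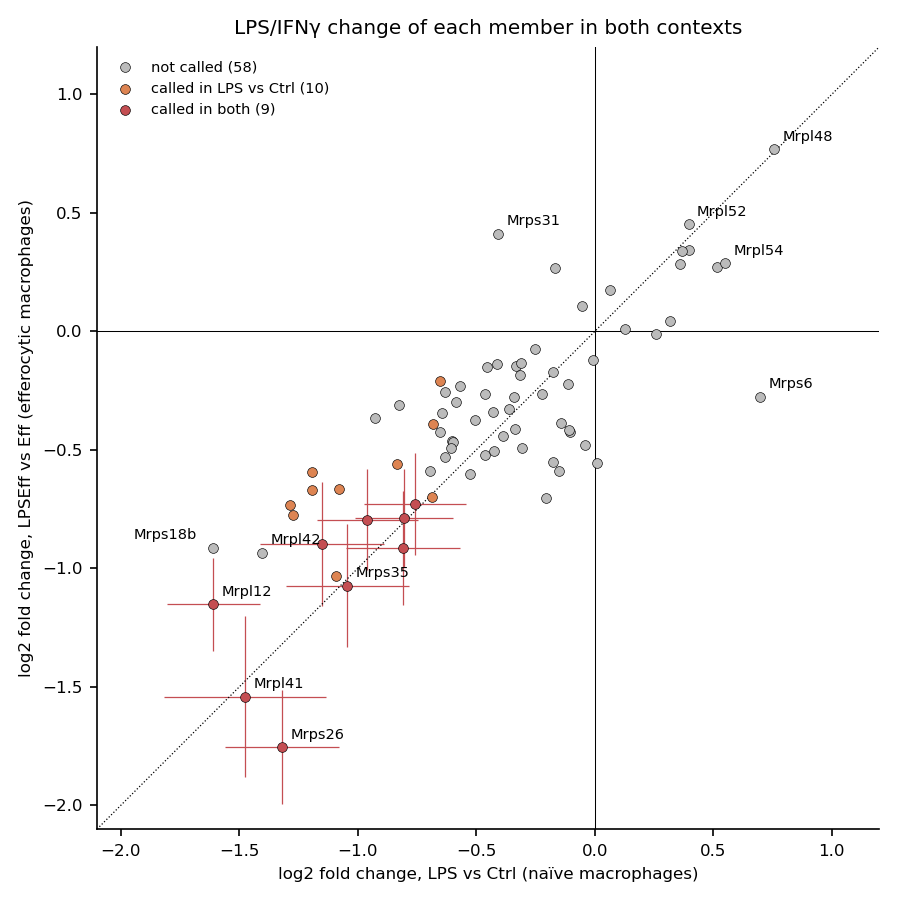
Log2 fold change of each of the 77 tested members after LPS/IFNγ in naïve Mϕ (x axis, LPS vs Ctrl) and in efferocytic Mϕ (y axis, LPSEff vs Eff); the dotted line marks equal change, and error bars on the 9 members called in both are the SE. Most members lie at the lower left, Mrpl48 lies at the upper right with 0.76 and 0.77, and Mrps31 and Mrps6 lie on opposite sides of 0.

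For no member was a difference between the contexts called. The interaction, the log2 fold change in efferocytic minus that in naïve Mϕ, was called for 0 of 77 members by limma, with 0 at an unadjusted p under 0.05. Of all 16309 tested genes 0% were called, and 112 were lower and 199 higher at an unadjusted p under 0.05. Under edgeR and DESeq2 no member was called either. The members' median interaction was 0.06, beside 0.01 for all tested genes. The largest values were those of Mrps6 (−0.97, SE 0.56), Mrps31 (0.82, SE 0.40), Mrps18b (0.70, SE 0.79), Mrps11 (0.60, SE 0.38) and Mrpl16 (0.56, SE 0.41). For Mrpl12 the 95% interval of the interaction ran from −0.18 to 1.10 and included 0.

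For efferocytosis without stimulation no member was called in the fit of group means, and calls with a replicate block are given at the end. In Eff vs Ctrl, 0 of 77 members were called by limma, where 0.251% of all tested genes were called. At an unadjusted p under 0.05 in the same test, 0 members were lower and 1 (Mrpl58) was higher. Of all 16309 tested genes, 424 were lower and 576 higher at that threshold. edgeR and DESeq2 called 0 members as well. The median log2 fold change was 0.07, beside −0.01 for all tested genes. Both Eff samples lay above both Ctrl samples in 20 members (26.0%), compared with 16.3% of tested genes, and below them in 3 (3.9%), compared with 17.8%. Summed over the 78 members, normalized counts were 14557 and 16125 in Ctrl and 15911 and 16288 in Eff, so the sums overlapped.

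Mrps6 had the largest difference, with 148 and 222 normalized counts in Eff against 74.3 and 128 in Ctrl (log2 fold change 0.89, SE 0.39, limma adjusted p = 0.83). The rescue factor Mrpl58 was at 133 and 141 in Eff against 83.8 and 89.1 in Ctrl (log2 fold change 0.66, SE 0.24, limma adjusted p = 0.64). Both Eff samples of each lay above both Ctrl samples. Mrpl23, Mrpl4 and Mrpl54 had log2 fold changes of 0.63, 0.47 and 0.46, and Mrpl23, which has a pseudogene of its name, rests on 7 reads in Ctrl replicate 1. On the lower side were Mrpl16 (−0.52), Mrps18b (−0.38), Mrpl21 (−0.35), Mrpl42 (−0.34) and Mrps31 (−0.34), given as log2 fold changes. For Mrpl16, which was at 120 and 121 in Ctrl and at 65.7 and 107 in Eff, the limma adjusted p was 0.96.

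After stimulation, the members' median log2 fold change between efferocytic and naïve Mϕ was slightly above 0, while the members' medians in the single samples overlapped. No member passed the test in the fit of group means, and calls with a replicate block are given at the end. In LPSEff vs LPS, 0 of 77 members were called by limma, where 0.773% of all tested genes were called. At an unadjusted p under 0.05 in the same test, 0 members were lower and 3 (Mrpl12, Mrpl17 and Mrpl20) were higher. Of all 16309 tested genes, 670 were lower and 1009 higher at that threshold. edgeR and DESeq2 called 0 members as well. The median log2 fold change was 0.13, beside −0.00 for all tested genes. Both LPSEff samples lay above both LPS samples in 19 members (24.7%), compared with 19.3% of tested genes, and below them in 2 (2.6%), compared with 17% of tested genes. Summed over the members, normalized counts were 11551 and 12274 in LPS and 12950 and 13151 in LPSEff, so the sums did not overlap. The tested members' median log2(normalized count + 1) was 6.92 and 7.07 in the LPS samples and 7.03 and 7.21 in the LPSEff samples, so these medians overlapped.

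Mrpl12 differed most, with 166 and 139 normalized counts in LPS and 222 and 251 in LPSEff, and its log2 fold change was 0.63 (SE 0.20, limma adjusted p = 0.27). Mrpl18 had 0.63 (limma adjusted p = 0.52), Mrps11 0.52 (limma adjusted p = 0.58), Mrpl20 0.49 (limma adjusted p = 0.37) and Mrpl17 0.48 (limma adjusted p = 0.39). In each of these 5 the samples did not overlap. Of the 19 members called lower in naïve Mϕ, 16 lay higher in LPSEff than in LPS, with a median log2 fold change of 0.30. LPS samples enter both that choice and this value, so it is a description only. In the opposite direction were Mrps26 (−0.29), Mrpl24 (−0.27), Mrps15 (−0.24), Mrpl13 (−0.22) and Mrps14 (−0.19).

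Fibroblast markers moved with efferocytosis and with stimulation, and stand beside these values. Of 15 tested markers, 8 were called higher by limma in each of the efferocytosis comparisons. In LPS vs Ctrl, 13 lay above 0, with a median log2 fold change of 1.31, and 3 (20%) were called higher, beside 12.4% of all tested genes. In LPSEff vs Eff, all 15 lay above 0, with a median of 1.12, and 2 (13.3%) were called higher, beside 10.7%. The 16 listed markers summed to 501 and 372 normalized counts in Ctrl Mϕ and to 2539 and 5348 in Eff Mϕ, and after stimulation to 4187 and 2106 without and 8968 and 7638 with efferocytosis. Col6a3, a fibroblast collagen, was at 0 and 8.10 in Ctrl and at 605 and 1020 in Eff, and Postn was also at 0 in Ctrl replicate 1. Much of the sum in LPS Mϕ came from Lox, at 3620 and 1335. The neutrophil marker S100a8 was also called higher in Eff vs Ctrl, at 665 and 699 against 308 and 269, while the other neutrophil and all dendritic cell markers were not. Mouse fibroblast RNA carries the same ribosomal protein genes, and its part in the members' values was not tested.

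Other genes that build and serve the mitoribosome were followed by lists. Their called shares stand beside the 11.6% (LPS vs Ctrl) and 8.95% (LPSEff vs Eff) of all tested genes called lower. At an unadjusted p under 0.05, 2941 and 2624 of the 16309 tested genes were lower in these comparisons and 2854 and 2691 higher. Of the 5 proteins of the particle whose symbols follow another pattern, 1 (20%), Gadd45gip1, was called lower in LPS vs Ctrl. It was at 322 and 282 normalized counts in Ctrl and at 179 and 170 in LPS (log2 fold change −0.79, limma adjusted p = 0.019). Ptcd3, Aurkaip1, Chchd1 and Dap3 had log2 fold changes of −0.54, −0.26, −0.23 and −0.05 and were not called. In LPSEff vs Eff, 0 of the 5 were called by limma, with 1 at an unadjusted p under 0.05, and their median was −0.40.

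Of the 25 assembly factors, which modify the ribosomal RNA and join the proteins to it, 8 (32%) were called lower and 0 higher in LPS vs Ctrl and 4 (16%) and 0 in LPSEff vs Eff, with medians of −0.56 and −0.48. Rbfa, which acts late in small subunit assembly, was at 166 and 191 normalized counts in Ctrl and at 53.0 and 57.9 in LPS (log2 fold change −1.67, limma adjusted p = 0.00152). Mrm3, a ribosomal RNA methyltransferase, and Rcc1l had log2 fold changes of −1.65 and −1.27 (limma adjusted p = 0.023 and 0.012). Nsun4, an rRNA methyltransferase, and Mrm1 lay higher with 0.86 and 0.68 and were not called.

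Of the 17 translation factors, 4 (23.5%) were called lower and 0 higher in LPS vs Ctrl and 1 (5.88%, below the 8.95% of all tested genes) and 0 in LPSEff vs Eff, with medians of −0.52 and −0.50. The largest falls were those of Pdf, the peptide deformylase (log2 fold change −1.01), Taco1, a translational activator (−0.89), and Lrpprc, which binds mitochondrial mRNAs (−0.86), with limma adjusted p-values of 0.024, 0.046 and 0.017. Slirp, the partner of Lrpprc, had 0.64 and Gfm2 −0.00, and neither was called. Of the 17 mitochondrial aminoacyl-tRNA synthetases, 7 (41.2%) were called lower and 0 higher in naïve Mϕ and 4 (23.5%) and 0 in efferocytic Mϕ, with medians of −0.65 and −0.64. Mars2 was at 171 and 139 normalized counts in Ctrl and at 33.6 and 48.7 in LPS (log2 fold change −1.90, limma adjusted p = 0.00269), and Nars2 and Vars2 had −1.60 and −1.30. Wars2 and Ears2, at the other end, had 0.15 and −0.04.

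Among 8 genes of mitochondrial DNA transcription and replication, 1 (12.5%, beside 11.6% of all tested genes) was called lower in LPS vs Ctrl. This was Polrmt, the mitochondrial RNA polymerase, with a log2 fold change of −0.80 (limma adjusted p = 0.026), and the medians of the list were −0.36 and −0.35 in naïve and efferocytic Mϕ. Tfb2m and Twnk had −0.60 and −0.49, and Tefm and Tfam 0.47 and −0.17, without a call. In LPSEff vs Eff, 0 of the 8 were called by limma, with 3 lower at an unadjusted p under 0.05.

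Other lists had medians near 0 in naïve Mϕ. Of 88 tested cytosolic ribosomal proteins, 0 were called by limma in either LPS/IFNγ comparison, and at an unadjusted p under 0.05, 1 was lower in naïve and 3 were lower and 1 higher in efferocytic Mϕ. Their medians were −0.07 and −0.09. Of 80 tested nuclear subunits of oxidative phosphorylation, 1 was called lower and 1 higher in each comparison, and the medians were −0.08 and −0.04. Of 13 mRNAs encoded in mitochondrial DNA, 8 were tested and 0 were called by limma in either comparison, with 1 higher at an unadjusted p under 0.05 in each. Their medians were 0.00 and 0.58, and mt-Co2, mt-Atp8 and mt-Nd4l were listed at 0 in each sample.

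**Figure D4:**
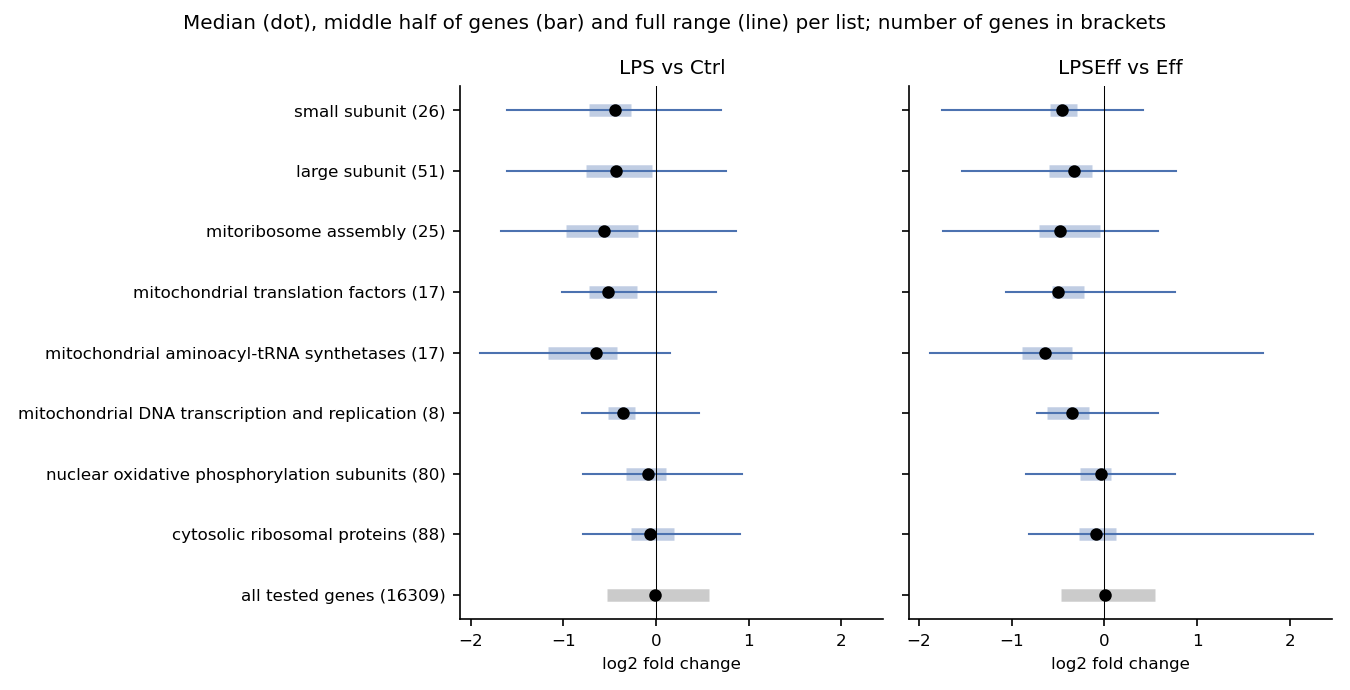
Log2 fold changes of the small and large subunit members, of 6 other gene lists and of all tested genes after LPS/IFNγ in naïve (left) and efferocytic Mϕ (right); the dot is the median, the bar the middle 50% of genes and the thin line the full range, which is left out for all tested genes. The medians of both subunits, −0.44 and −0.43 on the left and −0.45 and −0.33 on the right, lie left of those of oxidative phosphorylation subunits and cytosolic ribosomal proteins, which are between −0.09 and −0.04.

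Of 8 tested regulators of mitochondrial gene programmes, 3 (37.5%) were called lower in LPS vs Ctrl and 2 (25%) in LPSEff vs Eff. Myc, a transcription factor of growth and ribosome production, was at 543 and 412 normalized counts in Ctrl Mϕ and at 86.7 and 93.4 in LPS Mϕ, with 827 and 406 in Eff Mϕ and 101 and 147 in LPSEff Mϕ. Its log2 fold change was −2.38 in naïve Mϕ (limma adjusted p = 0.00221) and −2.24 in efferocytic Mϕ (limma adjusted p = 0.0035). The coactivators Ppargc1b and Pprc1 had −2.37 and −1.48 in naïve Mϕ (limma adjusted p = 0.011 and 0.0074). Of the factors whose cores were searched, Gabpa had a log2 fold change of 0.05, Gabpb1 0.58, Nrf1 −0.28 and Yy1 −0.34 in naïve Mϕ, and none of these was called. Esrra had 0.14.

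The members were also described by their promoter cores. The median log2 fold change in LPS vs Ctrl was −0.46 for the 25 members with an ETS core and −0.43 for the 44 without, of which 5 and 12 were called. It was −0.62 for the 12 members with a YY1 core and −0.40 for the 57 without, and −0.65 for the 5 with an E-box and −0.41 for the 64 without. For the 8 members with an NRF1 core it was −0.20, beside −0.44 for the 61 without. These groups are small and were not tested.

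Neighbours that face a member were called in both directions. Of 19 tested partners, 4 were called lower (Mrps11, Ncapd2, Ska3 and Helq) and 3 higher (Mitd1, Ppp1r10 and Tmem63b) in LPS vs Ctrl. Of all tested genes, 11.6% were called lower and 12.4% higher. The median log2 fold change of partners was −0.12, and 11 of the 19 lay below 0. The partners Mrps11 and Mrpl46 are themselves members. Some pairs lay on the same side of 0, such as Pnpla7 with −1.30 (limma adjusted p = 0.058, not called) beside Mrpl41 with −1.48. Exons of Mrpl41 overlap those of Dph7 and Pnpla7 on the other strand, and Pnpla7 was at 1457 and 1790 normalized counts in Ctrl. Whether these genes shared reads was not tested. In other pairs the signs differed. Mitd1, 61 bases from Mrpl30, rose with a log2 fold change of 1.69 (limma adjusted p = 0.00143), whereas Mrpl30 had −0.05. Ppp1r10, 598 bases from Mrps18b, rose by 0.80, whereas Mrps18b had −1.61. Fau, a cytosolic ribosomal protein gene 52 bases from Mrpl49, had 0.36 beside the −1.19 of Mrpl49.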

How the data were processed

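The data were 1 table of the whole series with 8 samples, all of which were assigned to a group from the labels, and 0 columns were left unassigned. After rRNA depletion and single-end sequencing, the authors used cutadapt for adapters, bowtie2 to discard rRNA reads, STAR for alignment to mm39, htseq-count at its defaults for reads per gene and DESeq2 for normalization. Tool versions and the annotation release are not given in the sources used here. The deposited signal values are normalized counts, which the authors made by dividing reads by 1 size factor per sample. In each sample 100% of these values were whole multiples of a step, within 0.1 read, which gave the reads back.

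Differences were tested on log2(normalized count + 1) by limma with trend (version 3.58.1 under R 4.3.3). The 16309 genes whose mean reached 10 entered a single fit of the 4 group means with 4 residual degrees of freedom. P-values were two-sided and adjusted by Benjamini-Hochberg over all tested genes. On the recovered reads, edgeR (version 4.0.16, quasi-likelihood, TMM) called 22 members (28.6%) lower in LPS vs Ctrl, beside 11.4% of all tested genes. In LPSEff vs Eff it called 10 (13%) lower, beside 9.41%. DESeq2 (version 1.42.0) called 16 (20.8%) lower in LPS vs Ctrl, beside 10.6% of all tested genes. In LPSEff vs Eff it called 7 (9.09%), a share close to the 9.13% of all tested genes. On simulated data the share of false calls of limma, edgeR and DESeq2 each lay above the 0.05 threshold, and most simulated 2-fold changes were missed. A far smaller part of the genes was changed there than was called in LPS vs Ctrl, so these shares need not hold for the real comparisons. The other alternatives were pseudocounts of 0.5 and 5, no filter or a mean of at least 50, a fit of the compared groups only, a replicate block, scaling to equal totals and omission of each sample, where a lone sample was assumed to vary like the other groups. The count tests with a replicate block were chosen after seeing the data.

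Gene names and positions came from GENCODE vM39, where 54749 of the 55359 identifiers were found. Promoter windows came from RefSeq (GRCm38.p6) and were placed in GRCm39 by exact match. Counting was less certain for 4 members with a pseudogene of their name and 8 that share exon sequence with another gene on the same strand. Exons of 57 members overlap a gene on the other strand, and whether the counting matched the strand of the library is not given in the sources used here. The SEs and intervals came from the limma fit and, like its p-values, measure the spread between the samples. The counting limit of 3 reads covers counting error only.

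The members and all lists were chosen with earlier results of these data known. The members named were the 12 largest falls and 6 largest rises per LPS/IFNγ comparison, the 5 largest differences in each direction per efferocytosis comparison, the 5 largest interactions, the 5 highest and 5 lowest levels, the stalk and S18 families, Mrps30, Mrps36 and Mrpl58. Of the other lists, the 3 largest falls and 2 largest rises in LPS vs Ctrl, Myc and the particle's proteins outside the symbol rule were named. All further members and genes named, with the sequences and neighbours shown, were chosen after their values were seen.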

Additional observations from a re-analysis of the deposited data

Results flagged for a closer look

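Mrps31, a small subunit protein particular to mitochondria, had differences of opposite sign in naïve and efferocytic Mϕ. It was at 64.7 and 97.2 normalized counts in Ctrl, and both LPS samples, at 58.2 and 60.9, lay below both. In Eff it was at 57.0 and 68.5, and both LPSEff samples, at 83.1 and 83.8, lay above both. The log2 fold changes were −0.41 and 0.41, and their difference was 0.82 (SE 0.40, 95% interval from −0.09 to 1.73). The test of this difference was not passed (limma adjusted p = 1.00). With samples scaled to equal totals, the log2 fold change in efferocytic Mϕ was −0.032.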

How the results depend on the processing

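The members' medians in both LPS/IFNγ comparisons stayed below 0 and the interaction gave 0 called members under each alternative run, but the number of calls moved. Shares of members are given of the 77 tested. Members called lower in LPS vs Ctrl were 11 (14.3%) with no filter on low values and 10 (13%) with only the compared groups. With equal totals they were 48 (62.3%). The shares of all tested genes were 3.06%, 7.66% and 26.4%. In LPSEff vs Eff the members called lower were 4 (5.19%), 5 (6.49%) and 48 (62.3%), beside 2.36%, 7.66% and 26.7% of all tested genes. Leaving out single samples gave 3 to 18 calls in LPS vs Ctrl and 2 to 11 in LPSEff vs Eff. The members' median in LPS vs Ctrl was −0.83 with equal totals and −0.56 to −0.38 over the omissions, that in LPSEff vs Eff was −0.84 with equal totals, and that of the interaction was −0.0047 to 0.16 over the omissions.

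With equal totals, the LPSEff vs Eff log2 fold changes turned negative for Mrpl27 (−0.10), Mrpl44 (−0.11), Mrpl54 (−0.16), Mrps18c (−0.18) and Mrps31 (−0.032), and that of Mrpl52 in LPS vs Ctrl (−0.0044). Over the omissions, signs turned in LPS vs Ctrl for Mrpl10 (−0.25 to 0.020) and Mrps18c (−0.61 to 0.27), in LPSEff vs Eff for Mrpl44 (−0.021 to 0.70) and Mrps18c (−0.078 to 0.61), in LPSEff vs LPS for Mrpl13 (−0.48 to 0.037) and Mrps14 (−0.43 to 0.055), in Eff vs Ctrl for Mrpl21 (−0.71 to 0.014) and Mrps18b (−0.80 to 0.039), and in the interaction for Mrps18b (−0.060 to 1.45). None of these members had been called in the comparison concerned before the change, and the cause was not tested.

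Samples share the replicate numbers 1 and 2, but the labels do not say that a number marks a shared preparation, and only 2 pairs are at hand per comparison. Deviations of same-numbered samples correlated between groups at 0.404 to 0.595 over all tested genes and at 0.091 to 0.470 over the members. With the replicate block, limma called 34 members lower and 4 higher (Mrpl13, Mrpl48, Mrpl54 and Mrps6) in LPS vs Ctrl, and 22 lower and 2 higher (Mrpl48 and Mrpl52) in LPSEff vs Eff, where it called 20.7% of all tested genes lower and 20.5% higher, and 18% and 19%. The 19 and 9 members called without the block were among them. With the block 1 member (1.3%), Mrps6, was also called higher in Eff vs Ctrl and 1 (1.3%), Mrpl12, in LPSEff vs LPS. Of all tested genes, 1.7% and 4.32% were called higher there. edgeR with the replicate block called 33 lower and 4 higher in LPS vs Ctrl, beside 19.8% and 21.1% of all tested genes. For LPSEff vs Eff its counts were 22 lower and 2 higher, beside 17.6% and 21.1%. The efferocytosis comparisons without and with stimulation each again gave 1 member higher (1.3%), below the 1.66% and 4.38% of all tested genes. DESeq2 with the block called 23 lower and 4 higher in LPS vs Ctrl, beside 15.9% and 18.6% of all tested genes. In LPSEff vs Eff it called 16 lower and 1 higher, beside 14.5% and 18%, and in Eff vs Ctrl 1 higher, beside 1.96%. As few as 5 reads stood behind a tested value.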
